A study of Mus musculus with 4 samples.

Results

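Oestrogen receptors, the receptors related to them and a few genes they act on or with were read in RNA-seq libraries of sorted mouse skeletal stem cells. The 10 genes were taken by name, as the rows of the deposited count table whose Ensembl ID carries the symbol Esr1, Esr2, Gper1, Greb1, Pgr, Nrip1, Cited2, Esrra, Esrrb or Esrrg in GENCODE M21 (GRCm38). All 10 were found among the 55487 gene IDs of the table. The cells came from wild-type (WT) mice that had either a sham operation or an ovariectomy, with 2 libraries per group, and every sample carried the time 8 weeks, which the labels do not define as an age or a time after surgery. Ovariectomy removes the ovaries, the main source of circulating oestrogen. Metaphyses of long bones were digested with collagenase, and the cells were sorted by flow cytometry, per the labels, after staining for the blood and vessel antigens CD45, Ter119 and Tie2 and for CD200, CD105, 6C3, CD90 and CD51. No label ties a library to its own mouse or pool, so the p-values reflect only how far these samples spread, and that spread may be technical.

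Oestradiol acts mainly through a pair of nuclear receptors, ERα (gene Esr1) and ERβ (Esr2), which bind DNA at oestrogen response elements and recruit coregulators. Gper1 encodes a G protein-coupled membrane receptor that also responds to oestradiol. The oestrogen-related receptors (Esrra, Esrrb, Esrrg) resemble ERα in sequence but do not bind oestradiol, and they drive genes of mitochondrial metabolism with PGC-1 coactivators. In bone, oestrogen signalling through ERα in cells of the osteoblast lineage and in osteoclasts restrains bone loss.

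The libraries held between 18291436 and 23721078 counts. Genes that passed edgeR's filter on low counts (17120) were tested, and a gene was called where its adjusted p was under 0.05. Of these genes, 716 (4.18%) were called, 510 (2.98%) higher and 206 (1.20%) lower after ovariectomy. Of the calls, 71.2% were higher. This share was 82.2% when libraries were scaled by their totals only and 58.4% with an offset for exon length and GC content. The median log2 fold change of all genes was -0.02, and it was -0.11 with that offset.

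None of the 10 genes was called. Only 6 passed the filter and were tested (Esr1, Gper1, Greb1, Nrip1, Cited2 and Esrra), and Esr2, Pgr, Esrrb and Esrrg were too low. edgeR called 0 of the 6 at an adjusted p under 0.05, beside 4.18% of all genes tested, and 1 (Gper1) had an unadjusted p under 0.05, which 18.4% of all genes tested had. DESeq2 called 1 of the 6, again Gper1, and limma-voom called 0. Of the 6, 3 (Esr1, Greb1, Nrip1) had both ovariectomy libraries above both sham libraries, as did 25.5% of all genes tested, and 2 (Gper1, Cited2) had both below, as did 23.9%. Groups that did not overlap were thus common, at 49.3% of all genes tested. The smallest two-sided p that an exact permutation test of 2 against 2 libraries can give is 0.333, so a single gene cannot pass one here.

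Per kilobase of exon, Cited2 was the most abundant of the 10 genes and Gper1 the most abundant receptor. The mean level over the 4 libraries, in CPM per kilobase (CPM being counts scaled to a common library size after TMM normalization, here divided by exon length), was 10.1 for Cited2, 5.09 for Gper1, 1.01 for Esr1, 0.890 for Nrip1 and 0.424 for Esrra. Then came Esr2 at 0.162, Greb1 at 0.116, Esrrb at 0.0980, Esrrg at 0.0449 and Pgr at 0.00738. The per-kilobase level of Cited2 lay above that of 81.4% of the genes tested, that of Gper1 above 69.4% and that of Esr1 above 36.2%. Neighbours whose ranges over the 4 libraries did not overlap were Cited2 with Gper1, Gper1 with Esr1, and Nrip1 with Esrra. All other neighbours in this order overlapped and cannot be ranked. With the longest transcript as the length, the level of Esr1 was 2.17, that of Nrip1 1.30 and that of Esrra 0.747 CPM per kilobase, and the first 6 places kept their order.

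**Figure D1:**
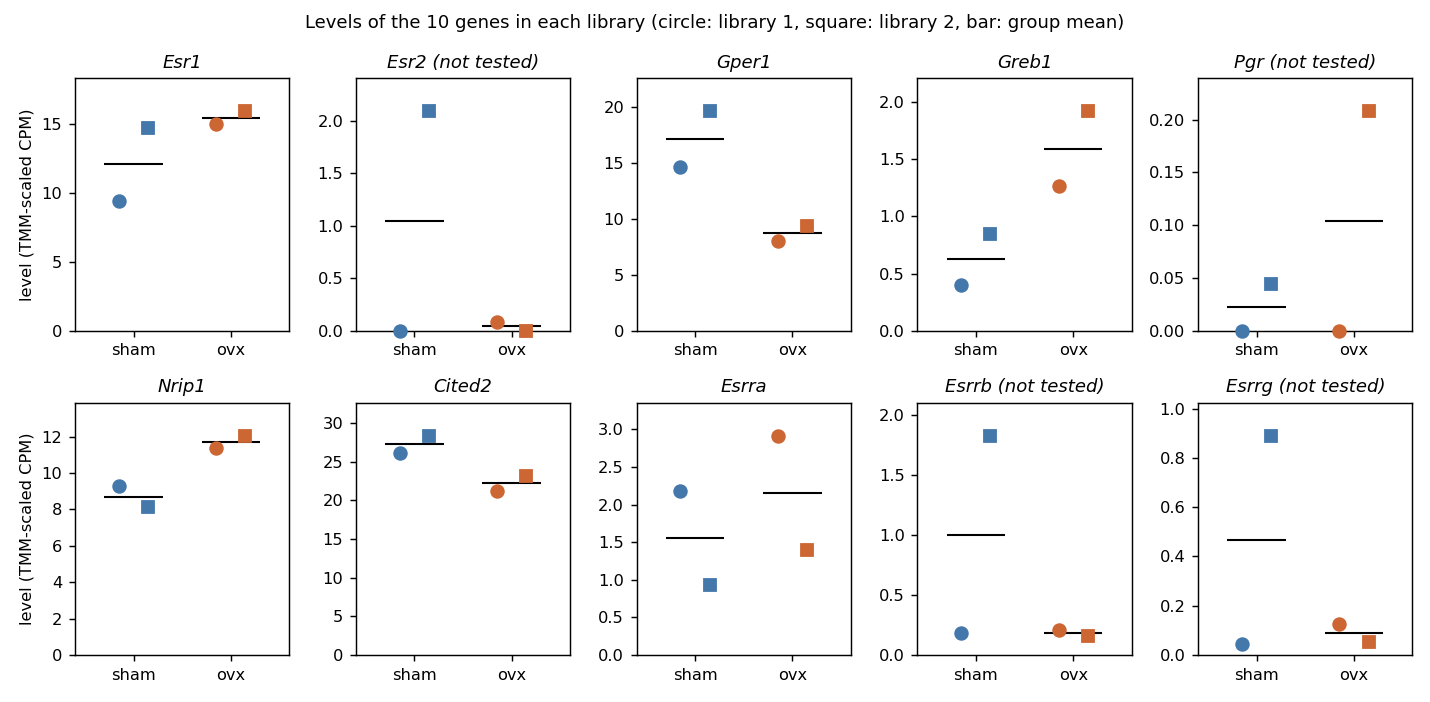
Level of each of the 10 genes in each library (TMM-scaled CPM, linear axes from 0, blue for sham and orange for ovariectomy, circles for library 1 and squares for library 2, bars for group means). Both ovariectomy libraries of Gper1 (7.99 and 9.40 CPM) lay below both sham libraries (14.6 and 19.6 CPM), and Esr2, Esrrb and Esrrg stood out in sham library 2 alone.

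Gper1 (ENSMUSG00000053647, chromosome 5, 139423151 to 139427800, plus strand, GRCm38), the membrane receptor, showed the smallest p of the 6 tested genes. Sham libraries held 328 and 441 counts of it, ovariectomy libraries 189 and 181, or 14.6 and 19.6 against 7.99 and 9.40 CPM. Both ovariectomy libraries lay below both sham libraries, and the sham libraries differed from each other by 1.34-fold (95% counting interval 1.16 to 1.55). The group means were 17.1 ± 3.54 CPM (SD, n = 2) in sham and 8.70 ± 0.997 CPM (SD, n = 2) after ovariectomy. The log2 fold change was -0.98 ± 0.26 SE (95% interval -1.58 to -0.37), or 1.97-fold lower, and it missed the threshold (edgeR adjusted p = 0.0922). Gper1 was called lower with DESeq2 (adjusted p = 0.0458), at a mean of at least 5 CPM (edgeR adjusted p = 0.0470), with the exon length and GC offset (0.0481), with no filter (0.0191) and without sham 1 (0.0146). Without sham 2 its log2 fold change was -0.74 (edgeR adjusted p = 0.149), and over all 13 alternatives the adjusted p ran from 0.0146 to 0.566.

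Cartilage and bone markers were lower in the same libraries as Gper1. Of 7 chondrocyte markers 6 were called lower (median log2 fold change -0.85), beside 1.20% of all genes tested (median -0.02). The summed level of the list was 99720 and 92060 CPM in the sham libraries and 58260 and 53020 CPM after ovariectomy. Most of it came from Col2a1, and without Col2a1 the sums were 26550 and 26670 against 18000 and 16150 CPM. Of 7 osteoblast markers 4 were called lower (median -0.85), with summed levels of 83770 and 112900 against 74380 and 68280 CPM. Most of these came from Col1a1, which was not called. Without Col1a1 the sums were 21280 and 24110 against 13310 and 11080 CPM. No marker of either list was at 0 in any library. In bulk RNA, fewer cells of a type and less RNA per cell cannot be told apart, and the part of these cells in the Gper1 values was not tested.

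The sequence before the Gper1 start is shown because this gene had the largest ratio of difference to error among the 6 tested genes. RefSeq (GRCm38.p6) places the 250 bases before the start at chr5:139422929-139423178, plus strand, and the last of these bases fall in the first exon as GENCODE draws it. No capitals are printed because none of the motifs named next was found.
Gper1: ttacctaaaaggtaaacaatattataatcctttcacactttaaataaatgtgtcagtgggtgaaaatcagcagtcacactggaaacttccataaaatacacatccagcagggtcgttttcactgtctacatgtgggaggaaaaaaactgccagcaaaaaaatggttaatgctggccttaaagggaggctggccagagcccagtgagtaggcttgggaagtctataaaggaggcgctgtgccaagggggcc
The promoter windows of all 10 genes (17 windows of 250 bases before to 50 after a start) were searched on both strands for the palindromic oestrogen response element GGTCANNNTGACC, for TCAAGGTCA, the extended site of the related receptors, and for the hexamer AGGTCA, which the second motif contains. The palindrome was in 0 of the 17 windows and in 0.07% of all 32851 windows. TCAAGGTCA was in 0 of the 17 and in 0.423% of all. AGGTCA was in 1 of the 17, a window of Greb1, and in 16.3% of all.

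Esr1 (ENSMUSG00000019768, chromosome 10, 4611593 to 5005614, plus strand), the gene of ERα, was present at similar counts in 3 of the 4 libraries. It had 212 and 331 counts in sham and 355 and 307 in ovariectomy libraries, or 9.46 and 14.7 against 15.0 and 15.9 CPM. Sham 1 was the low library, and sham 2 lay just under ovariectomy 1. The 2 sham libraries differed by 1.56-fold (95% counting interval 1.31 to 1.86), more than the 1.28-fold difference between the groups. The log2 fold change was 0.36 ± 0.27 SE (95% interval -0.28 to 0.99, edgeR adjusted p = 0.579). It was 0.07 without sham 1 and 0.72 without sham 2, so its size rested on which sham library was kept.

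Esr2 (ENSMUSG00000021055, chromosome 12, 76120419 to 76177259, minus strand), the gene of ERβ, was detected in sham 2 and hardly elsewhere. Its counts were 0 in sham 1, 47 in sham 2, 2 in ovariectomy 1 and 0 in ovariectomy 2. A count of 0 allows a level of up to 0.134 CPM in sham 1 and 0.156 CPM in ovariectomy 2 (3 counts, counting error only), against 2.09 CPM in sham 2. The ratio of the summed counts, ovariectomy over sham, was 0.0445 (exact 95% counting interval 0.00524 to 0.170), but the groups overlapped, because sham 1 had no count. With no filter its log2 fold change was -4.38 ± 1.71 SE (edgeR adjusted p = 0.155), and it was called lower with sham 1 left out (edgeR adjusted p = 0.0283). The difference thus rests on sham 2. A count of at least 40 in one library and at most 5 in each of the others, a cut chosen after the Esr2 counts were seen, was met by 18 genes for sham 2, 26 for sham 1, 6 for ovariectomy 1 and 5 for ovariectomy 2.

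Greb1 (ENSMUSG00000036523, chromosome 12, 16670615 to 16800886, minus strand) encodes a chromatin-bound cofactor of ERα and is one of the genes most strongly induced by oestrogen in breast cells. It was sparse in all libraries, with 9 and 19 counts in sham and 30 and 37 after ovariectomy, or 0.401 and 0.846 against 1.27 and 1.92 CPM. Both ovariectomy libraries were above both sham libraries. The ratio of summed counts was 2.50 (95% counting interval 1.59 to 4.04), while the log2 fold change of 1.34 ± 0.82 SE (95% interval -0.59 to 3.28) did not pass (edgeR adjusted p = 0.466). It was 0.91 without sham 1 and 1.98 without sham 2. Greb1 shares 7.68% of its exon length with Gm48140 on the other strand, and whether the counting used strand is not known here.

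The 250 bases before the outer of the 2 Greb1 starts (RefSeq, GRCm38.p6, chr12:16800887-16801136, minus strand) are shown as the one window of the 10 genes with the hexamer. Capitals mark it, read on the opposite strand as TGACCT, at 88 to 83 bases before the start.
Greb1: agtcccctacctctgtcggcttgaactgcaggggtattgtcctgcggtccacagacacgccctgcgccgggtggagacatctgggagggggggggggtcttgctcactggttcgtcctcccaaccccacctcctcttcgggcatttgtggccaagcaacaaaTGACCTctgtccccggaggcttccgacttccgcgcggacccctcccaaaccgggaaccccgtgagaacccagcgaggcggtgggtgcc
This match is a description of the letters and no sign of binding.

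Pgr (ENSMUSG00000031870, chromosome 9, 8899833 to 8968611, plus strand), the progesterone receptor and a classical target of ERα in uterus and breast, was almost undetected. It had 0 and 1 counts in sham and 0 and 4 counts in ovariectomy libraries. The ratio of the sums was 4.18 with an exact 95% counting interval of 0.414 to 206, so no direction could be read at this depth. With no filter the log2 fold change was 1.95 ± 3.36 SE (edgeR adjusted p = 0.827).

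Nrip1 (ENSMUSG00000048490, chromosome 16, 76287400 to 76373827, minus strand), also called RIP140, is a corepressor that binds ligand-bound nuclear receptors and is itself induced by oestrogen in breast cells. It had 208 and 182 counts in sham and 269 and 232 in ovariectomy libraries, or 9.28 and 8.10 against 11.4 and 12.1 CPM. The ovariectomy libraries were both higher and the replicates were close, with counting intervals of the replicate ratio that included 1 in both groups. The log2 fold change was 0.43 ± 0.25 SE (95% interval -0.16 to 1.02, edgeR adjusted p = 0.435), and it lay between 0.33 and 0.53 over the 13 alternatives.

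Cited2 (ENSMUSG00000039910, chromosome 10, 17723218 to 17725674, plus strand) binds the coactivators CBP and p300, competes there with the hypoxia factor HIF-1α, and can act as a coactivator of nuclear receptors. It had the highest counts of the 10 genes, 587 and 637 in sham and 502 and 446 after ovariectomy, or 26.2 and 28.4 against 21.2 and 23.2 CPM. The groups did not overlap, and replicates differed by 1.08-fold in sham and 1.09-fold after ovariectomy. The log2 fold change of -0.30 ± 0.18 SE (95% interval -0.71 to 0.12) corresponds to 1.23-fold lower and did not pass (edgeR adjusted p = 0.447). Its SE was the smallest of the 6 tested genes.

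Of the related receptors, Esrra (ENSMUSG00000024955, chromosome 19, 6910977 to 6921813, minus strand), the gene of ERRα, was the one that could be tested. It had 49 and 21 counts in sham and 69 and 27 in ovariectomy libraries, or 2.19 and 0.935 against 2.92 and 1.40 CPM. The groups overlapped. Libraries within a group differed by 2.34-fold in sham (95% counting interval 1.38 to 4.10) and 2.08-fold after ovariectomy (1.32 to 3.38), both more than the 1.39-fold difference between groups. The log2 fold change was 0.47 ± 0.70 SE (95% interval -1.17 to 2.11, edgeR adjusted p = 0.815), and it turned to -0.14 without ovariectomy 1. Esrra shares 3.74% of its exon length with Mir6990 and with Trmt112, the latter on the other strand.

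Esrrb (ENSMUSG00000021255, chromosome 12, 86361117 to 86521628, plus strand), a factor of pluripotent cells and the placenta, had 4 and 41 counts in sham and 5 and 3 in ovariectomy libraries. Esrrg (ENSMUSG00000026610, chromosome 1, 187608791 to 188214885, plus strand), best known from heart, muscle and brain, had 1 and 20 counts in sham and 3 and 1 in ovariectomy libraries. In both genes sham 2 was the high library and the other 3 were within a few counts of each other. The sham libraries differed by 10.2-fold for Esrrb (95% counting interval 3.71 to 39.3), and for Esrrg, with 1 count in sham 1, the interval of that ratio ran from 3.19 to 827. The ratios of summed counts, ovariectomy over sham, were 0.186 (0.0757 to 0.399) and 0.199 (0.0497 to 0.591), and neither group difference passed with no filter (edgeR adjusted p = 0.607 and 0.810) or without sham 1 (0.128 and 0.379). Esr2, Esrrb and Esrrg thus had in common that their counts came mainly from sham 2.

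**Figure D2:**
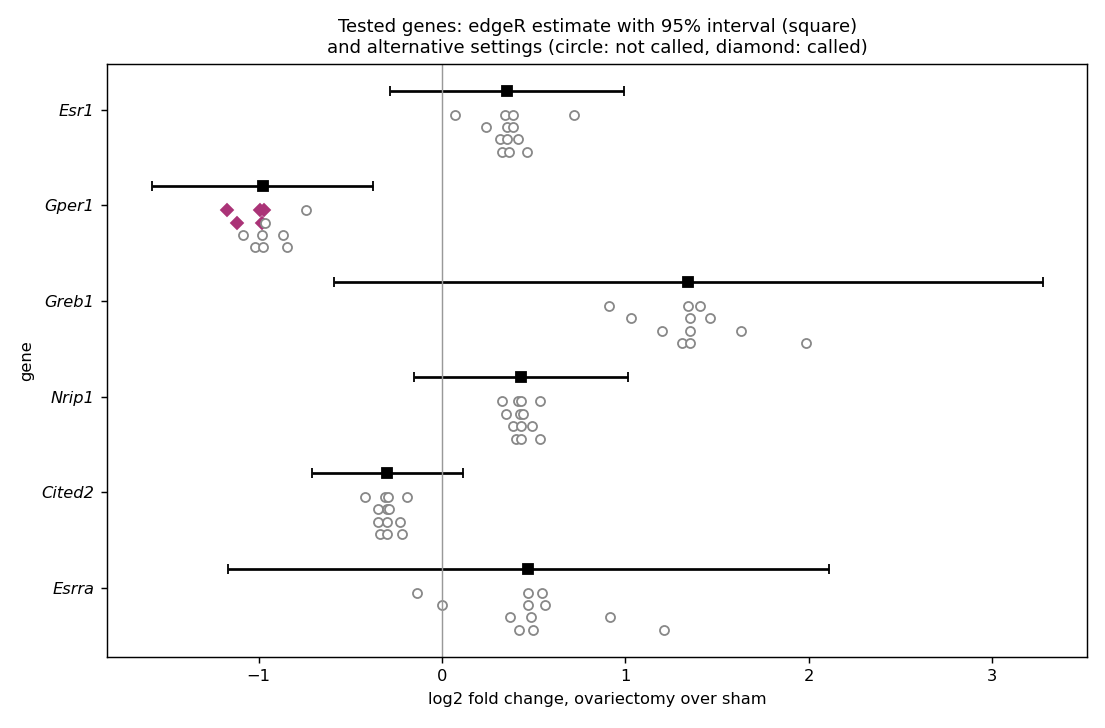
Log2 fold change of the 6 tested genes, ovariectomy over sham (x axis), with the edgeR estimate and its 95% interval as black squares and bars, and the alternative settings as circles (not called) or diamonds (called). Gper1 is the gene with diamonds and the one whose interval, -1.58 to -0.37, leaves out 0.

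The rest of the pathway was read through gene lists, chosen with earlier results of these data known. The background was 2.98% of tested genes higher and 1.20% lower, with a median log2 fold change of -0.02. An unadjusted edgeR p under 0.05, counted below for lists without calls, was met by 18.4% of all genes tested. Of 20 receptor coregulators, such as the p160 coactivators Ncoa1 to Ncoa3, edgeR, DESeq2 and limma-voom each called 0 (3 at an unadjusted edgeR p under 0.05), and the median was 0.09. With no filter on low counts edgeR called 1 of the 20 higher. Ddx17, a helicase and coactivator among the genes of smallest p in that list, was at 33.8 and 27.9 against 22.9 and 21.3 CPM (log2 fold change -0.48, edgeR adjusted p = 0.222). Of 11 chaperones that hold steroid receptors ready for hormone, 1 was higher and 0 lower. That gene was Hspa8, a constitutive HSP70, with 1226 and 1195 CPM in sham and 1663 and 1805 CPM after ovariectomy (log2 fold change 0.52 ± 0.10 SE). Its call (edgeR adjusted p = 0.0319) was lost with the exon length and GC offset. Of 4 other nuclear receptors, 0 were higher and 1 lower, with a median of -0.38. That gene was Vdr, the vitamin D receptor, which fell 1.51-fold, from 107 and 115 to 72.6 and 74.0 CPM (edgeR adjusted p = 0.0459, lost with scaling by totals only and without sham 2).

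Genes that make or break down oestrogens were mostly not called or too low to test. Of 16 listed, 14 were matched by symbol and 10 tested. edgeR called 1 higher and 0 lower, DESeq2 and limma-voom each called 1 higher and 1 lower, and the median was 0.56. Without sham 2 edgeR called 2 higher and 1 lower. The gene that rose was Cyp1b1, the cytochrome P450 that hydroxylates oestradiol, from 7.18 and 20.8 to 182 and 202 CPM (13.7-fold, log2 fold change 3.78 ± 0.43 SE, edgeR adjusted p = 0.00537). The sham libraries differed in Cyp1b1, and its log2 fold change was 3.21 without sham 1 and 4.75 without sham 2. Cyp19a1, the aromatase that makes oestradiol (named after its values were seen), had 7 and 0 counts in sham and 3 and 4 counts in ovariectomy libraries. At this depth no difference in aromatase was detectable.

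Other genes known to be induced by oestrogen, mostly in breast or uterus, were called in both directions. Of 22 tested, 5 were higher and 1 lower, with a median of 0.28 (10 were called without sham 2). Igfbp4, a binding protein of insulin-like growth factors, rose 5.73-fold from 46.7 and 61.0 to 310 and 307 CPM (edgeR adjusted p = 0.000771). Ccn5, a matricellular protein, rose 4.86-fold from 18.5 and 20.9 to 96.6 and 94.6 CPM (edgeR adjusted p = 0.000795). Areg, the EGF receptor ligand amphiregulin, had 0 counts in both sham libraries and 169 and 88 after ovariectomy, at least 43.8-fold higher against a floor of 3 counts per library (edgeR adjusted p = 0.00589). Myc and Cxcl12 (named after their values were seen) were the other members called higher, and Stc2, a stanniocalcin, fell 1.72-fold from 119 and 116 to 72.4 and 64.4 CPM (edgeR adjusted p = 0.0202). Of 7 fibroblast markers, none at 0, 6 were called higher in the same libraries (median 2.18), beside 2.98% of all genes tested. Their summed level was 4135 and 6531 CPM in sham and 6032 and 6734 CPM after ovariectomy, most of it from Dcn, the member not called. Without Dcn the sums were 103 and 150 against 496 and 553 CPM. The part of these cells in the values above was not tested.

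Cytokines of bone loss that oestrogen restrains, together with the decoy receptor Tnfrsf11b, gave 2 higher and 1 lower of 7 tested, with a median of 0.83. Il6 rose 9.71-fold from 5.22 and 4.01 to 48.5 and 41.1 CPM (edgeR adjusted p = 0.00115), and Csf1 3.17-fold from 48.8 and 59.3 to 152 and 191 CPM (edgeR adjusted p = 0.0045). Tnfrsf11b, osteoprotegerin, which blocks the osteoclast factor RANKL, fell 1.74-fold from 1054 and 1093 to 599 and 636 CPM (edgeR adjusted p = 0.00775). The RANKL gene itself, Tnfsf11 (named after its values were seen), was not called. It was at 7.98 and 8.73 against 5.24 and 7.79 CPM (log2 fold change -0.36, edgeR adjusted p = 0.642). The fibroblast markers (6 of 7 higher) and the chondrocyte markers (6 of 7 lower) moved in the same libraries, and their part in the cytokine values was not tested.

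With all 4 libraries, no partner or target of the related receptors passed the test. Of 7 tested coactivators and partners edgeR, DESeq2 and limma-voom each called 0 (1 at an unadjusted edgeR p under 0.05), with a median of 0.05. Pprc1, of the PGC-1 family, was at 70.6 and 73.4 against 94.8 and 86.4 CPM (log2 fold change 0.33, edgeR adjusted p = 0.228), and Prox1, which binds ERRα, at 3.57 and 7.66 against 3.04 and 2.34 CPM (-1.06, edgeR adjusted p = 0.306, called lower at -1.50 without sham 1, and -0.39 without sham 2). Of 22 tested mitochondrial targets edgeR, DESeq2 and limma-voom each called 0 as well (2 at an unadjusted edgeR p under 0.05), with a median of 0.19 and a range from -0.17 to 0.38. Without sham 2 edgeR called 1 of them higher. Cs (citrate synthase) was at 56.1 and 58.0 against 68.8 and 73.4 CPM (edgeR adjusted p = 0.253) and Atp5a1, a subunit of ATP synthase, at 301 and 303 against 361 and 359 CPM (edgeR adjusted p = 0.255). In 12 of the 22 both ovariectomy libraries were above both sham libraries and in 1 below, beside 25.5% and 23.9% of all genes tested.

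The family and partners of Cited2 gave 0 calls among 11 tested with edgeR, DESeq2 and limma-voom (2 at an unadjusted edgeR p under 0.05), with a median of -0.10. Cited1, a paralog, was at 6.75 ± 0.355 against 3.53 ± 0.873 CPM (SD, n = 2 each, log2 fold change -0.93, edgeR adjusted p = 0.223). Tfap2c, a transcription factor of the AP-2 family that Cited proteins coactivate, was at 3.35 and 3.43 against 1.61 and 0.623 CPM (-1.59, edgeR adjusted p = 0.232), and its log2 fold change was -2.41 without ovariectomy 1. Of 13 hypoxia targets of HIF-1, edgeR called 0 (3 at an unadjusted p under 0.05), and DESeq2 and limma-voom each called 1, with a median of -0.07. The smallest p belonged to Ndrg1 (60.5 and 96.0 against 138 and 164 CPM, edgeR adjusted p = 0.0649, called with 8 of 13 alternatives) and Adm (9.59 and 7.92 against 14.0 and 16.8 CPM, edgeR adjusted p = 0.134). The immediate-early genes, switched on by many stimuli and by tissue dissociation, had 8 of 16 called higher and 0 lower, with a median of 0.48. They were led by Klf2 (102 and 130 against 454 and 377 CPM), Zfp36 (3488 and 3340 against 5919 and 5803 CPM), Atf3 (879 and 949 against 1753 and 1670 CPM) and Socs3 (3102 and 2824 against 4911 and 5186 CPM), and 5 were called with the exon length and GC offset.

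**Figure D3:**
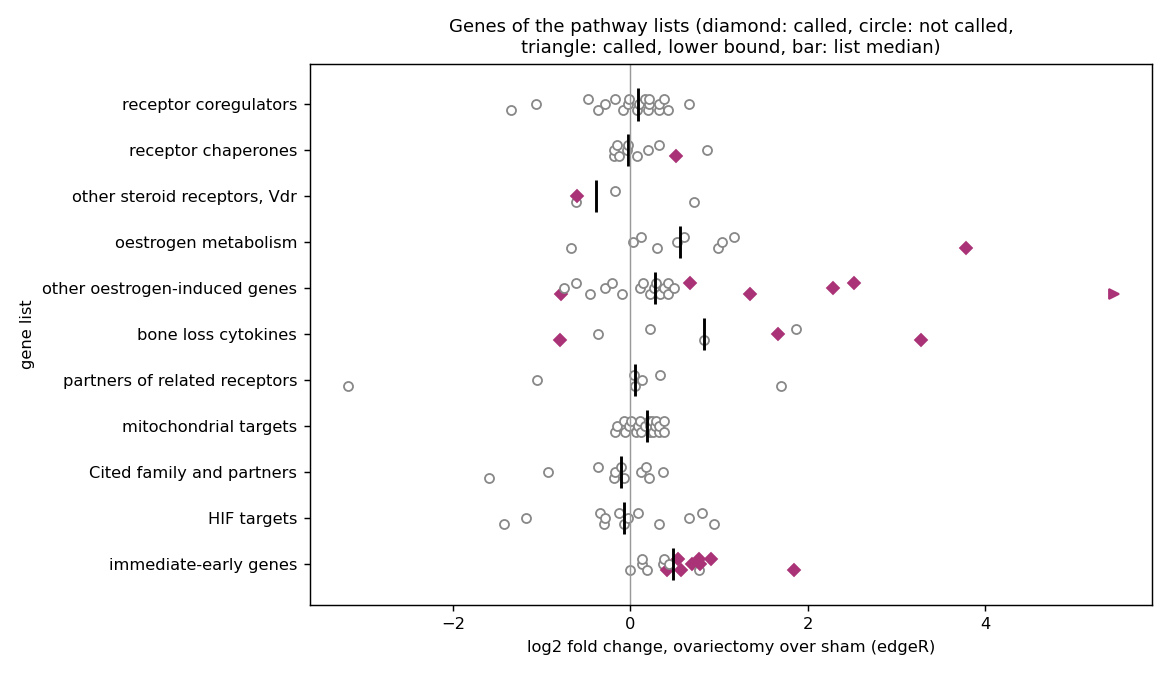
Log2 fold change, ovariectomy over sham, of the tested genes of each pathway list (circles not called, diamonds called by edgeR, the triangle Areg at its lower bound, black bars the list medians). The medians lie between -0.38 (other nuclear receptors) and 0.83 (bone loss cytokines), and the coregulators, the mitochondrial targets, the partners of the related receptors, the Cited family and the HIF targets show no diamond.

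Markers of the sorted and of other cells were read beside these values. Of the sort antigens, Itgav (CD51) was at 68.9 ± 2.23 and 70.5 ± 2.11 CPM (SD, n = 2 each), Cd200 at 271 ± 48.1 and 164 ± 12.6 CPM, and Thy1 (CD90) had between 3 and 5 counts per library. Cd200 was called lower (log2 fold change -0.73, edgeR adjusted p = 0.0462), the 1 call among the 6 sort antigens tested. Ptprc (CD45) had 214 and 118 counts in sham and 84 and 124 after ovariectomy. Enpep (6C3) was at 1.72 ± 0.281 and 4.02 ± 0.538 CPM (SD, n = 2 each). The sham libraries had 21.6 and 52.1 CPM of Eng (CD105), the ovariectomy libraries 75.2 and 83.1 CPM. Tek (Tie2) had 5 and 124 counts in sham and 178 and 188 after ovariectomy, so that sham 1 was the low library for both. Endothelial markers summed to 13.2 and 49.5 CPM in sham and 43.8 and 68.2 CPM after ovariectomy, with Cdh5 and Emcn at 0 in at least 1 library. Without Pecam1 the endothelial sums were 7.58 and 29.3 against 23.3 and 40.1 CPM, and 0 of the 8 markers were called. Erythroid markers summed to 47.7 and 29.8 against 150 and 208 CPM, with Klf1, Gata1, Epor and Rhag at 0 in at least 1 library. Without Car1 the erythroid sums were 47.6 and 29.1 against 98.4 and 121 CPM. Of 10 erythroid markers tested, 5 were called higher and 0 lower, with a median log2 fold change of 3.73. Of all genes tested, 2.98% were called higher and 1.20% lower, with a median of -0.02. Leukocyte markers summed to 84.5 and 62.8 against 104 and 147 CPM, and without Lyz2 to 53.1 and 38.5 against 61.9 and 68.9 CPM. Of these 8 leukocyte markers 0 were called. Pericyte and smooth muscle markers summed to 308 and 340 against 584 and 630 CPM, and without Cspg4 to 24.7 and 73.6 against 370 and 408 CPM. After ovariectomy most of the sum without Cspg4 came from Rgs5, which was at 5.66 and 46.4 against 295 and 361 CPM. Of these 8 markers 3 were called higher and 0 lower. Cspg4 (log2 fold change -0.33) and Abcc9 (-0.31) went the other way and were not called. Markers of LepR-expressing stroma summed to 128 and 196 against 289 and 397 CPM (44.9 and 56.4 against 57.4 and 62.9 CPM without Cxcl12). Osteoclast markers gave 1 call in each direction. Ctsk was higher (143 and 152 against 306 and 292 CPM, edgeR adjusted p = 0.00537) and Mmp9 lower (47.6 and 106 against 17.6 and 23.8 CPM, edgeR adjusted p = 0.0341), and the sum without Ctsk was 60.9 and 127 against 52.3 and 55.3 CPM. Skeletal muscle markers summed to 17.3 and 14.6 against 24.3 and 25.5 CPM, and without Des, which is also in the pericyte list, to 14.3 and 11.1 against 10.4 and 10.5 CPM. Ctsk, Mmp9, Dcn, Des, Cspg4, Rgs5, Abcc9, Car1, Lyz2, Pecam1, Col2a1 and Col1a1, and the sums without 1 gene, were singled out after their values were seen. Their part in the values of the 10 genes was not tested.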

How the data were processed

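The deposited values are raw read counts per gene in a single table of the 4 libraries. Trim Galore 0.6.6, featureCounts 2.0.1 and the build GRCm38 (mm10) are named in the submitters' processing notes. Which aligner, annotation release, strand option or filters they used is not given in the sources used here. GENCODE M21 named 55227 of the 55487 IDs and gave exon lengths (union of exons), GC content and overlaps.

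From the counts, genes passing filterByExpr were scaled by TMM and compared, ovariectomy over sham, with the two-sided quasi-likelihood test of edgeR 4.0.16 (R 4.3.3, group alone, all 4 libraries), with Benjamini-Hochberg adjustment over the 17120 genes. SE is the log2 fold change divided by the square root of F, and intervals use 7.29 degrees of freedom (2 residual and a prior of 5.29). The common biological coefficient of variation was 0.317. Counts of genes under the filter are given with exact binomial 95% intervals, which cover counting error only, as do floors of 3 counts. One count was worth 0.0423 to 0.0519 CPM. The fit was tested on simulated data. There it called 29 of 94 changes with a log2 size of 1 (30.9%) and 69 of 94 with a log2 size of 2 (73.4%). Where the set change was 0, it called 4 of 15831. Each simulated gene had the dispersion that the fitted trend gives at its level, with no further difference in spread between genes. These shares hold for that setting and are not error rates of the 4 libraries. Alternatives used DESeq2 1.42.0, limma 3.58.1, other scalings, filters and designs, and left out each library.

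The 10 genes and all lists were chosen with earlier results of these data known. The text names all 10 genes, the sort antigens and, from each list, the called genes with the smallest p (at most 4), or the 2 tested genes of smallest p in a list without calls. Values of some genes that this rule selects are not reported here. Genes with a pattern close to a called member were to be named too, and none was called. Motifs were searched in RefSeq promoter windows (GRCm38.p6).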

Additional observations from a re-analysis of the deposited data

How the results depend on the processing

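The number of genes called in the whole table was 716, and it was 1416 with DESeq2, 1656 with no filter, 1105 at a mean of at least 5 CPM and 0 to 1835 without 1 library. Without ovariectomy 1 or ovariectomy 2 edgeR called 0 genes, while 1788 and 1618 had an unadjusted p under 0.05, and every call among the pathway lists was lost. In those fits the lone ovariectomy library is assumed to vary like the sham pair. Likewise, without sham 1 or sham 2 the lone sham library is assumed to vary like the ovariectomy pair. The number of the 10 genes called was 0, and it was 1 (Gper1) with DESeq2, with no filter, at a mean of at least 5 CPM and with the exon length and GC offset, and 0 to 2 without 1 library, where the 2 called without sham 1 were Gper1 and Esr2. Over the pathway lists together 20 genes were called, 0 to 29 without 1 library. Of the tested 10 genes only Esrra changed sign, at -0.14 without ovariectomy 1, and its leave-one-out values ran from -0.14 to 1.21. The 24 other genes that the naming rule selects kept their sign in the alternatives run on each. Greb1 and Esrra have no value at a mean of at least 5 CPM. Why calls came and went was not tested.

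Replicate numbers are shared by the groups, but nothing in the labels says that they pair the libraries, and deviations from the group means correlated with r = 0.012 over 17120 genes. With the replicate block 1074 genes were called, 0 of the 10 genes and 26 of the pathway lists, and Gper1 had a log2 fold change of -0.97 (edgeR adjusted p = 0.0591). The depth limits Esr2, Pgr, Esrrb, Esrrg and Greb1, whose counts were between 0 and 47 per library.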

Other observations

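Among the other nuclear receptors, named here after their values were seen, the mineralocorticoid receptor gene Nr3c2 had 138 and 172 counts in sham and 288 and 203 in ovariectomy libraries (log2 fold change 0.72, edgeR adjusted p = 0.220). The glucocorticoid receptor gene Nr3c1 had 1743 and 1746 against 1649 and 1317 counts (log2 fold change -0.17, edgeR adjusted p = 0.555). Ppargc1a, the coactivator PGC-1α, had 12 and 11 counts in sham and 52 and 22 counts in ovariectomy libraries (log2 fold change 1.70 ± 0.81 SE, edgeR adjusted p = 0.331). Hsd17b7, an enzyme of oestradiol and cholesterol synthesis, was at 68.4 ± 11.2 and 43.0 ± 0.395 CPM (SD, n = 2 each, log2 fold change -0.67, edgeR adjusted p = 0.0682).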
